A study of Mus musculus with 20 samples.

Results

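The genes of ketone body use and transport described here were 4 in number, Oxct1, Bdh1, Acat1 and Slc16a1, and they were followed on Affymetrix arrays of mouse heart ventricle. The array holds a probe set assigned to a single gene for 8251 genes, and 2 members are among them, Oxct1 and Slc16a1, with 1 such probe set each. Bdh1 and Acat1 matched no probe set in the table used and were not analysed here. The members were chosen by their pathway, except that Oxct1 was selected on its measured intensity, which was lower in tTA hearts. Its differences between groups are therefore given as a description, with no test. Slc16a1 was not picked for a difference.

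The study examined hearts that express tTA, the tetracycline transactivator, to learn what this protein alone changes. It switches on genes placed behind tetracycline operators, and the antibiotic doxycycline (Doxy) keeps it off those sites. The 19 arrays with a group were FVBN control hearts without Doxy (n = 2), FVBN + Doxy hearts (n = 4), tTA hearts without Doxy (n = 8) and tTA + Doxy hearts (n = 5). All groups are given as the strain FVBN, and the keywords of the labels name the alpha MHC promoter, that of the Myh6 gene, which is active in heart muscle cells. The labels name no operator-driven target gene, and age, sex, Doxy dose and duration were not used here. They do not say that each array is a separate animal, so the p-values measure the spread between arrays only. The numbers in the array titles run from 8177 to 8341 in FVBN, and in tTA from 7288 to 7488 with 9310 and 9322 beyond the FVBN numbers. No run of neighbouring numbers holds both genotypes, or both Doxy states of a genotype, so a difference between such runs cannot be told apart from genotype or Doxy.

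Ketone bodies are made mainly in the liver from the acetyl-CoA of fat breakdown and are burned by heart, muscle and brain. The transporter encoded by Slc16a1, MCT1, carries them and lactate across the cell membrane together with a proton. In mitochondria Bdh1 oxidizes beta-hydroxybutyrate to acetoacetate. Oxct1 (SCOT) then moves coenzyme A from succinyl-CoA to acetoacetate, the step that commits a ketone body to use, and Acat1 splits the product into acetyl-CoA for the citric acid cycle. The liver has little SCOT and so exports what it makes.

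The promoter sequences of the measured members are shown because the data compare their transcript levels between the same hearts. Each is the 250 bases before the start of the gene in RefSeq's annotation of GRCm38.p6, on the plus strand, chr15:4026178-4026427 for Oxct1 and chr3:104638414-104638663 for Slc16a1. Capitals mark matches to the motifs searched, on either strand.
Oxct1: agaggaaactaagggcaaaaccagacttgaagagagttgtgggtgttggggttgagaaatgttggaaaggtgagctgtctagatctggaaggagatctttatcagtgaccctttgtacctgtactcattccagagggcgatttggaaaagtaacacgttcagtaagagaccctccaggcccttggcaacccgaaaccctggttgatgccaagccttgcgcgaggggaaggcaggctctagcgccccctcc
Slc16a1: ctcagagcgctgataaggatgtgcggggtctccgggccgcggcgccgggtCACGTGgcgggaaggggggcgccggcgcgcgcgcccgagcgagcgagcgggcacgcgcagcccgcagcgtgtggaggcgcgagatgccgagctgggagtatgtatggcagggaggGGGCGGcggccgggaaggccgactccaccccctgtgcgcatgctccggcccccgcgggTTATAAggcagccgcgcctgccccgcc

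The stretch before Oxct1 was 52% G or C with 6 CpG pairs, against medians of 52.4% and 6 over 32851 promoter stretches of the same length. The stretch before Slc16a1 was far richer, at 76.4% with 37 CpG pairs. It held the E-box CACGTG (in 6.02% of the 32851 stretches), 200 bases before the start, and the GC box GGGCGG (in 32.7%), 85 bases before it. It also held the TATA element TATAA (in 22.8%) once on each strand, overlapping in TTATAA, with first bases 27 and 26 bases before the start. The Oxct1 stretch matched none of these, and neither stretch held CCAAT (in 33.8%), TNAAGGTCA, an ERR site (in 1.14%), or a PPAR direct repeat, which is a repeat of AGGTCA with any 1 base between the copies (in 0.0335%). A match is a match of letters, not a bound site.

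Oxct1, the enzyme that starts the use of acetoacetate, was lower in tTA hearts than in FVBN hearts both without and with Doxy. Its normalized intensity was 899.5 and 925 on the FVBN control arrays. On the FVBN + Doxy arrays it was 843, 836, 899.5 and 849. On the 8 tTA arrays it ran from 492 to 699 with a median of 649. On the tTA + Doxy arrays it was 589, 656, 626, 783 and 516. All 13 tTA arrays lay below all 6 FVBN arrays, and the gap between the nearest arrays was small, 783 on tTA + Doxy array 7486 against 836 on FVBN + Doxy array 8338. In the deposited intensities, before any further normalization, the highest tTA value was 808 and the lowest FVBN value 843. In whole ventricle fewer cells of a type and less RNA per cell cannot be told apart.

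**Figure D1:**
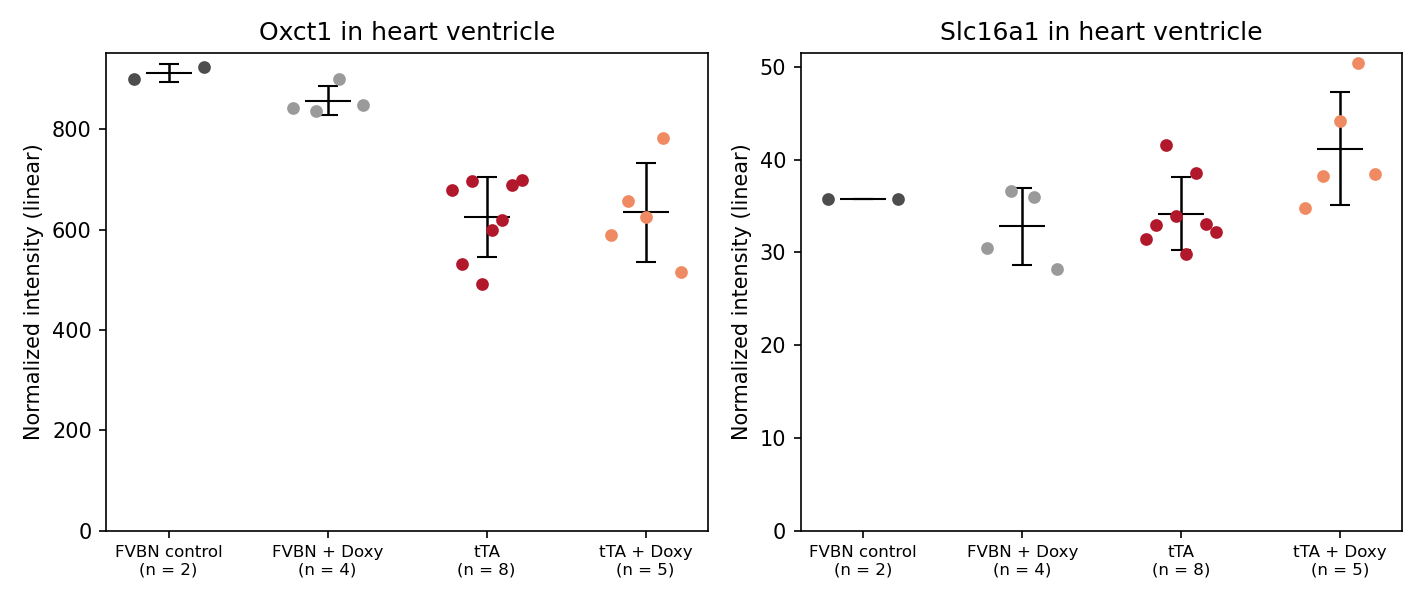
Normalized intensity (linear scale, arbitrary units) of Oxct1 and Slc16a1 on each array of FVBN control, FVBN + Doxy, tTA and tTA + Doxy. Points are arrays and bars are the group mean with its SD. Oxct1 lies at 836 or more on every FVBN array and at 783 or less on every tTA array, while the groups overlap for Slc16a1.

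In order of level the group means of Oxct1 were 912 ± 17.9 (SD, n = 2) in the untreated FVBN hearts, 857 ± 28.9 (n = 4) in FVBN + Doxy, 634 ± 98.4 (n = 5) in tTA + Doxy and 626 ± 80.2 (n = 8) in tTA. The tTA groups differed from each other by far less than their spread, and the FVBN groups touched at 899.5. On the log2 scale Oxct1 was lower by -0.55 ± 0.13 (SE) in tTA than in FVBN control, a level 1.47-fold lower, in 8 of 8 tTA arrays. With Doxy in both genotypes it was lower by -0.45 ± 0.11, 1.36-fold, in 5 of 5 tTA + Doxy arrays. Of the 5658 genes tested, 6.1% were lower with no overlap in the first comparison and 3.59% in the second, and 0.601% lay lower on all tTA arrays than on all FVBN arrays. These shares stand beside Oxct1 for scale only, since it was picked for this difference.

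Doxy itself moved Oxct1 by little in either genotype. The log2 difference was -0.09 ± 0.14 between FVBN + Doxy and FVBN control and 0.02 ± 0.09 between tTA + Doxy and tTA. The difference between these Doxy effects was 0.11 ± 0.17. Within groups the SD was 0.149 on the log2 scale, from group variances averaged with equal weight whatever the number of arrays. It was the tTA groups that spread widely, with SDs of 0.19 and 0.22 against 0.028 and 0.048 in the FVBN groups. In tTA, arrays 7308 and 7292 were lowest, at 492 and 532, and the other 6 ran from 599 to 699. In tTA + Doxy, array 7486 was highest, and without it the difference from FVBN + Doxy was -0.53. Without array 7488, the lowest, it was -0.38. The difference between the Doxy effects was 0.03 without 7486 and 0.18 without 7488.

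Slc16a1, the membrane transporter for ketone bodies and lactate, was dim in these hearts and did not pass a test in any comparison. Its mean intensity was at the percentile 33.9 of all probe sets, yet its lowest value was 1.96 times the floor of 14.4 below which intensities were not read. On the FVBN control arrays it read 35.8 and 35.7, and on the FVBN + Doxy arrays 30.5, 36.7, 36.0 and 28.2. The tTA arrays ran from 29.8 to 41.6 with a median of 33.0. The tTA + Doxy arrays read 34.8, 38.2, 44.2, 50.4 and 38.5. These groups overlap, with tTA + Doxy holding the 2 highest arrays of all 19.

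The tTA + Doxy mean of Slc16a1 was the highest, 41.2 ± 6.14 (SD, n = 5), against 35.8 ± 0.011 (n = 2) in the untreated FVBN hearts, 34.2 ± 3.91 (n = 8) in tTA and 32.8 ± 4.14 (n = 4) in FVBN + Doxy. The latter 3 did not differ beyond their spread. Since Slc16a1 was among the dimmest 40% of probe sets, it was tested in a limma fit over all 12422. Against FVBN control, tTA hearts stood at -0.07 ± 0.13 (limma adjusted p = 0.942), where 1.2% of probe sets were called, and at -0.11 without array 7294 or -0.04 without 7310. With Doxy in both genotypes tTA stood at 0.32 ± 0.11 in 5 of 5 arrays (unadjusted p = 0.0121, limma adjusted p = 0.165), where 2.27% were called.

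Doxy in tTA hearts went with a Slc16a1 difference of 0.26 ± 0.10, with 5 of 5 arrays above the tTA mean (unadjusted p = 0.0153, limma adjusted p = 0.595), where 0.0161% of probe sets were called. In FVBN hearts the Doxy difference was -0.13 ± 0.15 (limma adjusted p = 0.856), where 0.00805% were called, and -0.06 without array 8341. The test of the difference between these Doxy effects gave 0.40 ± 0.18 (unadjusted p = 0.04, limma adjusted p = 0.411), where 0% were called in limma and 1442 of the 12422 probe sets had an unadjusted p below 0.05. Averaged over both Doxy states the genotype difference was 0.13 ± 0.09 (limma adjusted p = 0.589), where 4.19% were called. None of these passed the threshold of 0.05. As for Oxct1, tTA + Doxy array 7486 was the highest, and without it the genotype difference with Doxy was 0.25.

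Few other genes of ketone body chemistry were measured. Of 9 such enzymes listed, 1 had a probe set, Hmgcs1, the cytosolic HMG-CoA synthase that serves cholesterol synthesis. Its log2 difference was -0.14 ± 0.09 between tTA and FVBN control (limma adjusted p = 0.461) and 0.12 ± 0.08 with Doxy (limma adjusted p = 0.4), neither past the threshold. Of 19 genes of monocarboxylate transport, 5 had a probe set and 2 were bright enough to test. Bsg, the chaperone (basigin) that MCT1 needs to reach the membrane, stood at -0.03 ± 0.07 (limma adjusted p = 0.889) without Doxy and -0.07 ± 0.06 (limma adjusted p = 0.51) with it. Slc16a8, a transporter known from the retinal pigment epithelium, stood at 0.07 ± 0.06 (limma adjusted p = 0.601) and -0.03 ± 0.05 (limma adjusted p = 0.76). Slc16a7, the MCT2 transporter, was not tested. Its median normalized intensity was below the floor of 14.4 in all groups but FVBN control, where it was 16.1.

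Another list held steps that make or use acetyl-CoA and supply or remove succinyl-CoA, and its genes were lower in tTA hearts where they passed. Of 18 listed, 16 were tested. In tTA against FVBN control 2 fell and 14 did not pass. Of the 5658 tested genes 2.95% were called, 1.94% lower and 1.01% higher. Below 0 were 15 of the 16 differences, and 2504 of the 5658 over all tested genes. The list median was -0.17 on the log2 scale, against 0.015 over all tested genes. In FVBN + Doxy against FVBN control, with no difference in genotype, 14 of the 16 were also below 0. There the list median was -0.07, against 0.0096, and 2645 of the 5658 were below 0. Acss1 is the mitochondrial enzyme that makes acetyl-CoA from acetate. In tTA against FVBN control it fell by 0.53 ± 0.12 on the log2 scale (limma adjusted p = 0.0172). Sdhb, a subunit of succinate dehydrogenase, fell by 0.22 ± 0.05 (limma adjusted p = 0.0264). Every one of the 8 tTA arrays lay below the FVBN control mean for both genes. Neither passed when either FVBN control array, 8177 or 8182, was left out (highest limma adjusted p over all alternatives 0.339 and 0.239).

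With Doxy in both genotypes 2 of the 16 fell, where 6.2% of tested genes were called, 1.66% lower, and 14 did not pass. Acss1 fell by 0.40 ± 0.10 (limma adjusted p = 0.0205), in 5 of 5 arrays. Cs, the citrate synthase that takes up acetyl-CoA, fell by 0.27 ± 0.07 (limma adjusted p = 0.0206), also in 5 of 5. Cs without Doxy stood at -0.25 ± 0.08 (limma adjusted p = 0.0946). The list median was -0.08, against -0.013 over all tested genes. The Acss1 call ended when each array was only scaled to the same median. It also ended without array 8338, 8340, 7485 or 7488, and the Cs call without 8337, 8340 or 7399 (highest limma adjusted p over all alternatives 0.0997 and 0.121).

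The values of Acss1 show how these groups lay. It read 538 and 512 on the FVBN control arrays, and 459.8, 531, 536 and 410.2 on the FVBN + Doxy arrays. The 8 tTA arrays ran from 301 to 417 with a median of 359.95. The tTA + Doxy arrays read 341, 332, 347, 465 and 348. Without Doxy the genotypes did not overlap, as for 6.1% of tested genes. With Doxy, array 7486 at 465 stood above 2 of the 4 FVBN + Doxy arrays.

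Averaged over both Doxy states, which uses all 19 arrays and so repeats the comparisons above, 6 of the 16 fell, where 9.56% of tested genes were called, 4.56% lower and 5% higher. These were Acss1 (-0.47 ± 0.08, limma adjusted p = 0.000536), Cs (-0.26 ± 0.05, adjusted p = 0.00259), Sdha, Sdhb, and the succinyl-CoA ligase subunits Sucla2 and Suclg1. Sucla2 stood at -0.18 ± 0.04 (limma adjusted p = 0.00522) and Suclg1 at -0.16 ± 0.04 (limma adjusted p = 0.0273). A second Sucla2 probe set stood at -0.15 ± 0.07 (limma adjusted p = 0.181). The calls of Cs and Sucla2 ended without FVBN control array 8177, and that of Sdha without 8177, 8182 or FVBN + Doxy array 8340. When each array was only scaled to the same median, or left as deposited, 7 of the 16 fell in tTA against FVBN control in place of 2.

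Breakdown of branched-chain amino acids and lysine also ends in acetyl-CoA, acetoacetate or succinyl-CoA, and 14 of its 22 listed genes were tested. In tTA against FVBN control 2 fell and 12 did not pass, where 1.94% of tested genes were called lower. The list median was -0.15, against 0.015 over all tested genes. In FVBN + Doxy against FVBN control, with no difference in genotype, it was -0.13, against 0.0096. There 13 of the 14 differences were below 0, as were 2645 of 5658 over all tested genes. In tTA against FVBN control Bckdhb, a subunit of the branched-chain ketoacid dehydrogenase, fell by 0.49 ± 0.08 (limma adjusted p = 0.00129). Echs1, the short-chain enoyl-CoA hydratase, which also serves fat oxidation, fell by 0.42 ± 0.08 (limma adjusted p = 0.00224). On 8 of 8 tTA arrays both lay below the FVBN control mean. The Echs1 call ended without FVBN control array 8177.

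With Doxy both fell again, where 1.66% of tested genes were called lower. Bckdhb fell by 0.32 ± 0.07 (limma adjusted p = 0.00828) and Echs1 by 0.24 ± 0.06 (limma adjusted p = 0.0262), in 5 of 5 arrays. Bckdk, the kinase that switches the dehydrogenase off, rose by 0.21 ± 0.06 (limma adjusted p = 0.0463), where 4.54% of tested genes were called higher. The other 11 did not pass, and the list median was -0.01. Bckdhb read 174 and 177 on FVBN control arrays and 157, 161, 175 and 131 on FVBN + Doxy arrays. The tTA arrays ran from 115 to 135 with a median of 126, and the tTA + Doxy arrays read 135, 111, 132, 127 and 118. The low FVBN + Doxy array, 8341, thus lay among the tTA + Doxy arrays. With Doxy the Echs1 call ended without any 1 of 5 arrays (8340, 8341, 7424, 7485 and 7488), and that of Bckdk without any 1 of 10. This Echs1 call also ended when each array was only scaled to the same median, or left as deposited.

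Over both Doxy states 4 genes of this list fell, where 4.56% of tested genes were called lower, and 1 rose, where 5% were called higher. Bckdhb (-0.41 ± 0.05, limma adjusted p = 3.55e-05) and Echs1 (-0.33 ± 0.05, limma adjusted p = 0.000135) were joined by Hibadh, a valine breakdown enzyme (-0.26 ± 0.06, limma adjusted p = 0.00968). The fourth was Auh, a leucine breakdown enzyme (-0.23 ± 0.06, limma adjusted p = 0.0139), whose other probe set stood at 0.00 ± 0.03 (limma adjusted p = 0.993). Bckdk rose by 0.19 ± 0.05 (limma adjusted p = 0.0139). The Auh call ended without FVBN control array 8177, that of Hibadh without 8177 or 8182 and that of Bckdk without 8182.

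Fat oxidation, which supplies the heart with acetyl-CoA in competition with ketone bodies, showed calls in both directions. Of 16 tested genes 0 passed in tTA against FVBN control in limma, where 2.95% of all tested genes were called. Echs1, which fell in that comparison, was counted above with amino acid breakdown and is not among the 16. Unadjusted p was below 0.05 for 4 of the 16, as for 17.3% of all tested genes (list median -0.03). With Doxy 1 rose, where 4.54% of tested genes were called higher, and 15 did not pass (list median 0.02). It was Hadh, the short-chain hydroxyacyl-CoA dehydrogenase (0.42 ± 0.09, limma adjusted p = 0.0106, 5 of 5 arrays). Its difference without Doxy was 0.22 ± 0.11 (limma adjusted p = 0.337). Over both Doxy states Hadh (0.32 ± 0.07) and Acads (0.19 ± 0.05), a short-chain acyl-CoA dehydrogenase, rose, and Hadhb, a subunit of the trifunctional protein, fell by 0.16 ± 0.05 (limma adjusted p = 0.00763, 0.0185 and 0.0431). Over both states 5% of tested genes were called higher and 4.56% lower. These Hadh and Acads calls ended without FVBN control array 8182, and that of Hadhb in 12 of 29 alternatives, either FVBN control array left out among them. The other Acads probe set stood at -0.03 ± 0.06 and did not pass.

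**Figure D2:**
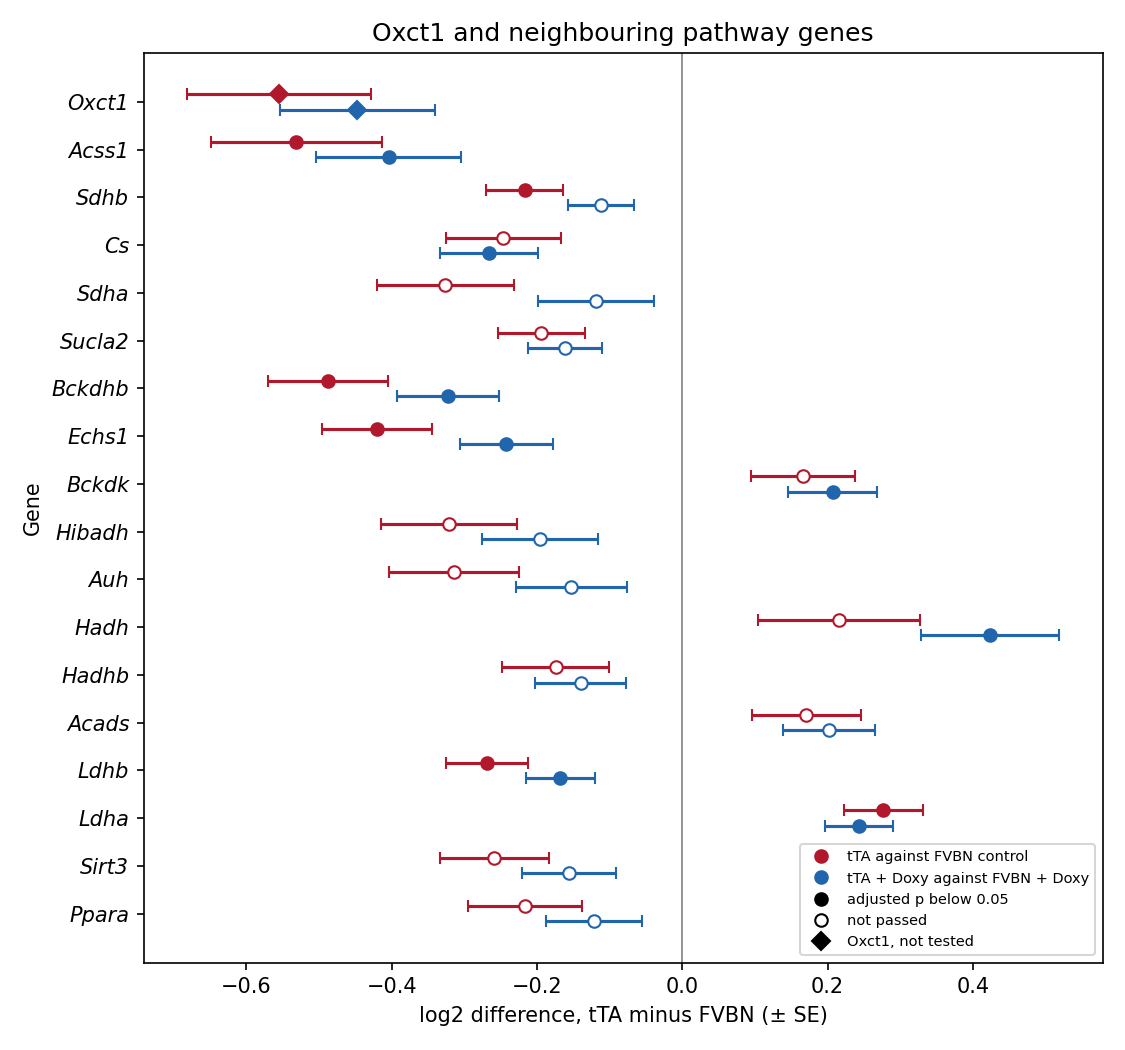
The log2 difference between tTA and FVBN (with its SE) for Oxct1 and neighbouring pathway genes, without Doxy (red) and with Doxy (blue). Filled circles passed at a limma adjusted p below 0.05, open circles did not, and the diamonds of Oxct1 were not tested. Acss1, Bckdhb and Echs1 lie below 0 and passed in both comparisons, while Ldha lies above 0 in both.

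Lactate shares the MCT1 transporter with ketone bodies, and 4 of 7 listed genes of pyruvate and lactate were tested. Ldhb, the lactate dehydrogenase subunit typical of heart, fell in both genotype comparisons (-0.27 ± 0.06, limma adjusted p = 0.00931, and -0.17 ± 0.05, limma adjusted p = 0.0399). Ldha, the subunit typical of glycolytic muscle, rose in both (0.28 ± 0.05, limma adjusted p = 0.00564, and 0.24 ± 0.05, limma adjusted p = 0.00303). Without Doxy 1.94% of tested genes were called lower and 1.01% higher, and with Doxy 1.66% and 4.54%. The other 2 genes passed in neither, and the list medians were 0.17 and 0.14, against 0.015 and -0.013 over all tested genes. Without Doxy both calls ended when FVBN control array 8177 or 8182 was left out, and that of Ldha when arrays were only scaled to the same median. With Doxy the Ldhb call ended without any 1 of 7 arrays, and when arrays were only scaled to the same median or left as deposited. The Ldha call with Doxy held under all alternatives run. Ldha read 1935 to 2167 on the 6 FVBN arrays and 2271 to 2602 on the 13 tTA arrays. The share of tested genes that lay higher on all tTA arrays than on all FVBN arrays was not counted.

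Of 18 regulators of ketone and fat oxidation genes, 8 were tested, and 0 passed in either genotype comparison in limma. In each of these 2 had an unadjusted p below 0.05, where 17.3% and 21.8% of all tested genes did, and the list medians were -0.01 without and -0.09 with Doxy. Over both Doxy states 2 fell, where 4.56% of tested genes were called lower. They were Sirt3, a mitochondrial deacetylase (-0.21 ± 0.05, limma adjusted p = 0.00973), and Ppara, a nuclear receptor for fatty acids that drives fat oxidation genes (-0.17 ± 0.05, limma adjusted p = 0.0396). The Sirt3 call ended without FVBN control array 8177, and that of Ppara in 13 of 29 alternatives, both other scalings and FVBN control array 8182 left out among them. No gene of any of these lists passed in a comparison of arrays with and without Doxy, where 0.0353% of tested genes were called in FVBN and 0.0707% in tTA, or in the test of the difference between the Doxy effects, where 0.0177% were called. Of the 61 list genes tested in limma, 2, 3 and 5 had an unadjusted p below 0.05 in these comparisons, in that order, where 12.2%, 7.83% and 15% of all tested genes did.

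The genes most like Oxct1 over the 19 arrays, by Pearson r of log2 levels among tested probe sets, were Nrp1 (r = 0.928), a receptor of semaphorins and vascular growth factor, Ghitm (0.903), an inner mitochondrial membrane protein, Ryr2 (0.874), the calcium release channel, Ablim1 (0.873), an actin-binding protein, and Bmi1 (0.865), a Polycomb protein. All arrays of a group share its genotype and Doxy state, which raises such values. With group means taken out, r was 0.788 for Nrp1, 0.747 for Ghitm, 0.522 for Ryr2, 0.551 for Ablim1 and 0.634 for Bmi1. Nrp1 read 433 and 443 on FVBN control arrays, 423 to 482 on FVBN + Doxy arrays, 312 to 360.5 on tTA arrays and 300.0 to 399 on tTA + Doxy arrays. Nrp1, Ryr2, Ablim1 and Bmi1 were, like Oxct1, lower on every tTA array than on every FVBN array, as were 0.601% of tested genes. That share is for scale only, since these genes were picked for likeness to Oxct1 on the same arrays. For Bmi1 the nearest arrays stood at 266 and 269, while Ghitm overlapped, with 301 on a tTA array and 293 on an FVBN array.

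Among the list genes tested, r with Oxct1 was highest for Cs (0.804), Echs1 (0.80) and Bckdhb (0.799), falling to 0.465, 0.339 and 0.322 with group means taken out. Over all list genes tested, r with group means taken out ran from -0.546 to 0.711. For Slc16a1 the most alike were Ube2n (r = 0.882), a ubiquitin-conjugating enzyme, Pdcd6 (0.87), a calcium-binding protein, Tmed7 (0.842), a protein of the secretory pathway, Kpna6 (0.839), a nuclear import receptor, and Actr3 (0.819), an actin-nucleating subunit. These kept r of 0.785 to 0.81 with group means taken out.

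Other measures moved with genotype on the same arrays. The arrays carry beta-actin control probe sets for the 3' and the 5' end of the transcript, and their log2 ratio, 3' over 5', is read as a sign of RNA quality. It was 0.543 to 0.555 in FVBN control, 0.407 to 0.600 in FVBN + Doxy, 0.145 to 0.445 in tTA and 0.270 to 0.419 in tTA + Doxy. With this ratio in the fit the Oxct1 difference was -0.34 ± 0.15 in tTA against FVBN control and -0.31 ± 0.11 with Doxy. Every call in the lists above then ended in tTA against FVBN control, and Hadh and Ldha were those that passed with Doxy. Over both Doxy states Bckdhb (limma adjusted p = 0.0268), Echs1 (0.0382) and Ldha (0.00435) still passed. Within the 8 tTA arrays Oxct1 and the ratio gave r = 0.638 (exact permutation p = 0.109, adjusted p = 0.434 over 4 relations) and rho = 0.476 (exact permutation p = 0.243, adjusted p = 0.48). Without the 2 arrays farthest from the median ratio, 7292 and 7310, r was 0.686. The same log2 ratio for GAPDH control probe sets overlapped between genotypes. It was -0.040 to 0.056 in FVBN control, 0.002 to 0.123 in FVBN + Doxy, -0.117 to 0.128 in tTA and -0.014 to 0.105 in tTA + Doxy. Within the tTA arrays Oxct1 and the GAPDH ratio gave r = 0.070 (exact permutation p = 0.824), and -0.415 without the same 2 arrays. The part of RNA quality in the genotype difference was not tested further.

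**Figure D3:**
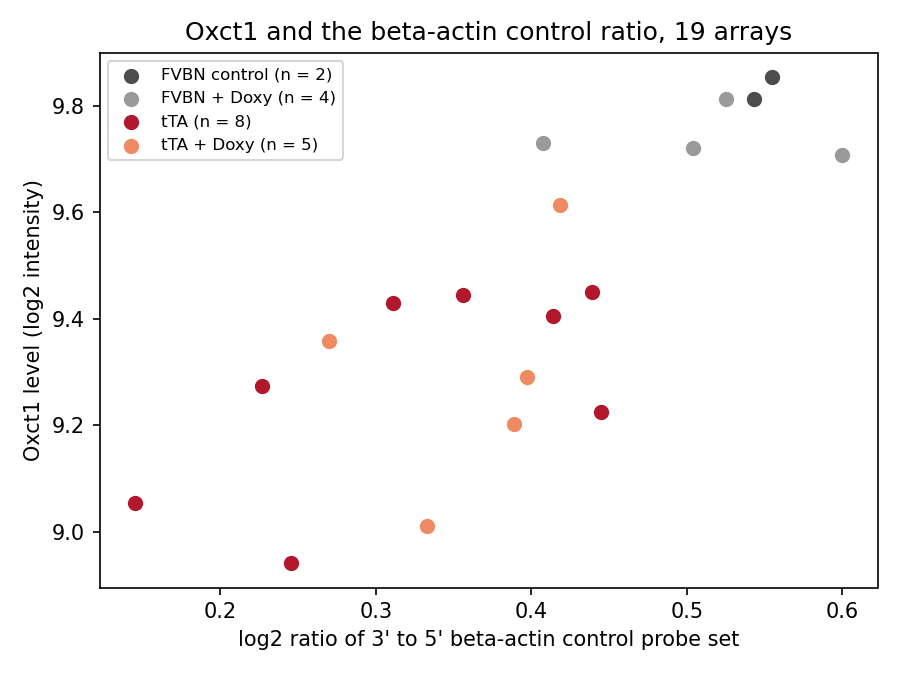
Oxct1 level (log2 of normalized intensity) against the beta-actin log2 ratio, 3' over 5', with 1 point per array, coloured by group. The FVBN arrays lie to the upper right, at ratios of 0.407 or more, and the tTA arrays below them, at ratios of 0.445 or less.

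The arrays read as heart. The summed intensity of 13 cardiomyocyte markers was 44775 to 47487 in FVBN control, 45000 to 46842 in FVBN + Doxy, 41941 to 47269 in tTA and 43649 to 47844 in tTA + Doxy, with 0 markers at the floor. Their median log2 difference was -0.07 in tTA against FVBN control and -0.05 with Doxy, with 1 marker (Ryr2) and 2 markers lower, and 1 higher with Doxy. The 8 liver markers summed to 302 to 431, with 2 of them at the floor throughout in every group but tTA, where 0 were. Sums of 4 erythroid markers were 2669 to 4750 in tTA and 2582 to 5498 in tTA + Doxy, against 4731 to 5259 in FVBN control and 5240.0 to 5763 in FVBN + Doxy, and 0 of the 4 passed in limma in either genotype comparison. Sums of 8 smooth muscle markers were 863 to 1012 in tTA and 983 to 1144 in tTA + Doxy, against 1130.0 to 1209 in FVBN control and 1052 to 1187 in FVBN + Doxy. Of 7 tested, Acta2 fell in both genotype comparisons and Myl9 rose with Doxy, and the list medians were -0.02 and -0.01. Sums of 12 skeletal muscle markers were 2354 to 4226 in tTA and 2424 to 3711 in tTA + Doxy, against 1618 to 1679 and 1981 to 2375. Of 7 tested, Acta1 was the 1 that passed in each genotype comparison, higher in tTA, and the list medians were 0.03 and -0.02. Sums of 9 endothelial markers were 2133 to 2318 in tTA and 2023 to 2211 in tTA + Doxy. They were 2365 to 2438 in FVBN control and 2083 to 2456 in FVBN + Doxy. Of 9 tested, Emcn passed without Doxy, lower in tTA, and 0 passed with Doxy, with list medians of -0.11 and -0.08. Sums of fibroblast, macrophage and adipocyte markers overlapped between genotypes in both comparisons, and with Doxy Fbln1 and Cd14 fell and Cidea rose. The part of these markers' cells in the Oxct1 difference was not tested.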

How the data were processed

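Deposited intensity values on a linear scale were used, from 20 arrays of 12488 probe sets. How the authors summarized, background-corrected and normalized them is not given in the sources used here. Of these, the 19 arrays whose labels give a group were compared, and 66 control probe sets were left out. The remaining 12422 were quantile normalized, given a floor at the 10th percentile (14.4) and put on the log2 scale, with R 4.3.3 and limma 3.58.1. The brightest 60% (7453 probe sets, 5658 genes) were fitted with 4 group means and eBayes with trend and robust options. P-values were adjusted by Benjamini-Hochberg over all probe sets tested in a comparison and called below 0.05. Medians of deposited intensity were alike on all arrays, and the number of arrays limits the precision. Each gene is represented by its brightest probe set linked to it alone. Of 10833 probe sets with 1 gene, RefSeq's gene table held the gene number of 10817.

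Members and gene lists were chosen with earlier results of these data known. Genes named were every measured member, up to 4 called genes per list, direction and comparison by size of change (the 2 brightest where none was called), Slc16a7 and Bsg, and the 5 probe sets most like each member. Suclg1 falls outside this rule and was named after its value was seen, to complete a count. Lists are described by counts and medians, with no set test. Slc16a1 did not pass the filter on dim probe sets, so the planned fit over all probe sets gives its values. Alternatives were other scalings, floors and filters, array weights, plain variance moderation, the arrays compared alone, the beta-actin ratio as a covariate, tTA arrays 9310 and 9322 left out, other probe sets and each array left out in turn. Those for Slc16a1 and the lists were combined after seeing the data. The fit was tested on simulated data. Correlations with control ratios were tested by exact two-sided permutation in Python 3.11.15 with SciPy 1.17.1, and plots were drawn with matplotlib 3.10.9.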

Additional observations from a re-analysis of the deposited data

Results flagged for a closer look

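Dixon's test for an array far from the rest of its group was run on 69 groups of arrays, and chance alone gives about 1 in 20. It picked 6. Acss1 on tTA + Doxy array 7486 was at a log2 level of 8.86, with the next at 8.44. Without that array the Acss1 difference with Doxy was -0.49. Sdhb on tTA array 7292 was at 11.06, with the next at 10.93. Hibadh on FVBN + Doxy array 8340 was at 9.10, with the next at 8.97. Slc16a7 was close to the floor of 3.85 in all 3 of its cases, at 3.85 on FVBN + Doxy array 8340, 3.96 on tTA array 7288 and 3.88 on tTA + Doxy array 7486. In FVBN + Doxy and tTA + Doxy every other array was set to the floor, so the array above it had to be picked. In tTA most others were set to the floor too. These 3 cases therefore cannot be set against the rate of 1 in 20.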

How the results depend on the processing

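Every Oxct1 genotype difference kept its sign under the alternatives run. The beta-actin ratio as a covariate moved it most, to -0.34 in tTA against FVBN control and -0.32 over both Doxy states. The small Oxct1 difference between tTA + Doxy and tTA ran from -0.06 to 0.09. The Slc16a1 differences kept their sign and did not pass in any of the fits run (lowest limma adjusted p = 0.104). Counts of called probe sets moved more. In tTA against FVBN control 208 were called, 27 with the covariate, and 54 (without array 8177) to 240 with 1 array left out. With Doxy 437 were called, 282 over all probe sets, 703 with array weights, and 241 to 493 with 1 array left out. Over both Doxy states 677 were called, 210 with the covariate, and 340 to 707 with 1 array left out. For Doxy in FVBN 3 were called, 1 over all probe sets, 5 with only the arrays compared, 8 without tTA arrays 9310 and 9322, and 1 to 7 with 1 array left out. For Doxy in tTA 5 were called, 10 with median scaling, 11 with no further normalization, 2 over all probe sets, 11 with array weights, 3 without arrays 9310 and 9322, and 3 to 23 with 1 array left out. For the difference between the Doxy effects 1 was called, 6 with either other scaling, 0 over all probe sets in limma (1442 with an unadjusted p below 0.05), 5 among the brightest 40%, 4 without arrays 9310 and 9322, and 0 to 4 with 1 array left out. Among the calls of named genes, Ldha and Hadh with Doxy, and Bckdhb, Echs1 and Ldha over both Doxy states, held under all alternatives. In tTA against FVBN control the covariate ended every call of a named gene, and leaving out FVBN control array 8177 ended those of Acss1, Sdhb, Echs1, Ldhb and Ldha, and 8182 those of Acss1, Sdhb, Ldhb and Ldha. With Doxy the calls of Acss1 (highest adjusted p = 0.0997), Cs (0.121), Echs1 (0.115), Bckdk (0.152) and Ldhb (0.13) each ended when some single arrays were left out, the highest adjusted p being taken over all alternatives. Median scaling also ended those of Acss1, Echs1 and Ldhb, and no further normalization those of Echs1 and Ldhb. Dimness limits Slc16a1 and Slc16a7. No paired analysis was possible because the groups share no replicate numbers.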

Other observations

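There was 1 more array, titled Cardiac tTA expression, which entered no group. Its title names tTA but has no number, and whether Doxy was given is not said. Its deposited intensity of Oxct1 was 825. The deposited values ran from 480.1 to 718 on tTA arrays, 513 to 808 on tTA + Doxy arrays, 843 to 892 on FVBN + Doxy arrays and 955 to 974.6 on FVBN control arrays, so it lay between the genotypes. Its deposited intensity of Slc16a1 was 34.3, inside the range of each group with more than 2 arrays except tTA + Doxy, whose lowest was 34.4.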
